A study of Arabidopsis thaliana with 6 samples.

Results

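Expansins are proteins of the plant cell wall that let the wall stretch. The superfamily in *Arabidopsis thaliana* has 36 genes, *EXPA1* to *EXPA26*, *EXPB1* to *EXPB6*, *EXLA1* to *EXLA3* and *EXLB1*, and these were taken by locus identifier from a table of 32678 genes. Of the 36, 35 had a row in the table. *EXPA19* (AT3G29365), which RefSeq annotates as a transcribed pseudogene, was not analysed here. The genes were taken by family name, a rule that does not use their values in the table. The members were, however, chosen with earlier results of these data known.

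Seeds were compared at 30 hr after pollination, with 3 biological replicates of each genotype and thus 6 libraries. WT seeds were set against seeds labelled *agl62*/-, in which AGL62, a MADS-box transcription factor, is mutated. In both genotypes flowers were emasculated shortly before anthesis and pollinated by hand, and RNA came from seeds that were not divided into tissues. The methods describe homozygous *agl62* plants, which arise at low frequency and give few viable seeds, and a supplement legend writes *agl62*/+ for the same data. No strain is given in the sources used here for the WT libraries, and the allele used in the study is *agl62-2*.

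The table holds the authors' mean normalised read count for each gene and genotype, with no value for a single library. The p-values of the authors in the same table were not used, so neither an SD nor a test is given, and the spread between the 3 replicates does not enter any value below. A gene was compared where the larger of its means was at least 10, and a difference was counted where the ratio of the means was at least 2-fold. Such a count describes the means and is not a significance call. A mean of 3 or less was treated as 3, so that a ratio against it is a bound. Intervals are exact 95% Clopper-Pearson intervals for counting error only, under the cautious assumption that all reads came from the shallowest library of a genotype. *AGL62* itself (AT5G60440) had means of 410 in WT and 1.81 in *agl62*, so it was lower by at least 137-fold in the latter.

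Expansins act at the acid pH that proton pumps set up in the wall. They do not cut wall polymers but loosen the contacts between them, so that a cell under turgor can expand. The alpha expansins (EXPA) are the proteins of classical acid growth, and the beta expansins (EXPB) include the group of grass pollen allergens. The expansin-like genes (EXLA and EXLB) are known from their sequence, and wall loosening has not been established for them. After fertilization the integuments, the maternal layers that become the seed coat, grow largely by cell expansion. The study asks what starts this growth, and *agl62* seeds are known to abort early with a seed coat that does not grow. The comparison made here asks which of the wall-loosening genes differ in RNA level between such seeds and WT.

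In *agl62* seeds 6 of the 24 expansins compared (25%) were at least 2-fold lower than in WT, beside 3.58% of the 20255 genes compared in the table. None was at least 2-fold higher, beside 3.20% of all genes. The 6 were *EXPB4* and *EXPA21*, *EXPA22*, *EXPA23*, *EXPA25* and *EXPA26*, and their ratios ran from 8.31-fold to 146-fold. The 5 alpha expansins among them come from 1 tandem cluster on chromosome 5. The other 18 expansins compared, among them the 3 most abundant of the family in WT seeds, stayed within 2-fold.

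The cluster of *EXPA21* to *EXPA26* lies on chromosome 5 from 15726243 to 15740605 of TAIR10.1, a span of 14.4 kb. The order along the chromosome is *EXPA21*, *EXPA22*, *EXPA23*, *EXPA26*, *EXPA25* and *EXPA24*, and RefSeq places all 6 on the minus strand. The 120 bases that come before the annotated start of each gene are shown because this stretch is where the 5 lower genes can be compared with *EXPA24*, their neighbour that had no reads. Each is written 5′ to 3′ on the strand of the gene, and the capitals mark the 8-base words that all 5 lower genes share within the 250 bases before the start.
*EXPA21*, chr5:15727459-15727578: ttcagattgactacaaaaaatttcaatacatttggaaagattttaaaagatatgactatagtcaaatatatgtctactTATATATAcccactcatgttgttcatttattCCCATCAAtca
*EXPA22*, chr5:15730232-15730351: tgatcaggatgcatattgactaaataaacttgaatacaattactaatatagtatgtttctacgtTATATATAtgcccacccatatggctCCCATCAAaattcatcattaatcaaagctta
*EXPA23*, chr5:15731791-15731910: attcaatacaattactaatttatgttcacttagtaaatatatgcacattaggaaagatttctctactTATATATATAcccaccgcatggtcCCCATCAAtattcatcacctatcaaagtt
*EXPA26*, chr5:15736980-15737099: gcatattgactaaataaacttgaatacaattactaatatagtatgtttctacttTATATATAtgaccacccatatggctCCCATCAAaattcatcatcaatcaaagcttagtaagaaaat
*EXPA25*, chr5:15738480-15738599: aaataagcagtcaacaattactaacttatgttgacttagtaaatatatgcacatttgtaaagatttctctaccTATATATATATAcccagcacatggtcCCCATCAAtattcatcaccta
*EXPA24*, chr5:15740606-15740725: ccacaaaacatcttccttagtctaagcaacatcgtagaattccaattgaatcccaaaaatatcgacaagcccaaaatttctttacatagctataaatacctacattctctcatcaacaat

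No word longer than 8 bases was common to the 5 lower genes. The words were TATATATA and CCCATCAA, in that order in each of the 5 stretches. CCCATCAA began between 11 bases (*EXPA21*) and 41 bases (*EXPA26*) before the annotated start. On either strand, 0.882% of the 27443 protein-coding promoters of the same 250 bases held CCCATCAA. The expansins were searched on the strand of the gene only, and there it was found in these 5 alone. TATATATA was more widespread, at 9.08% of promoters, and *EXPA11* and *EXPA14* held it too. *EXPA24* had neither word on the strand of the gene. These stretches and words were chosen after the values were seen, the genes are close copies, and a shared word is a description and not a binding site. Over 250 bases, *EXPA22* and *EXPA26* were identical at 94.4% of positions and *EXPA23* and *EXPA25* at 70%. The 5 lower genes matched each other at 56.8% to 94.4%, and *EXPA24* matched them at 50.8% to 58.8%, so that these ranges overlap.

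*EXPA25* (AT5G39300, chromosome 5, 15737366 to 15738479) was the most abundant gene of the cluster. Its mean normalised read count was 3320 in WT and 158 in *agl62*, a log2 ratio of -4.39. That is 21.0-fold lower, with a counting interval of 19.2 to 23.1. In WT seeds it ranked 4 of the family per kb of transcript, and in *agl62* seeds 15.

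*EXPA23* (AT5G39280, 15730653 to 15731790) had means of 2140 in WT and 41.8 in *agl62*. The difference was the largest of the cluster, at 51.2-fold (interval 43 to 61.4, log2 ratio -5.68).

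*EXPA22* (AT5G39270, 15729037 to 15730231) had means of 605 and 32.9, and was 18.4-fold lower in *agl62* (interval 15 to 22.8, log2 ratio -4.20). *EXPA26* (AT5G39290, 15735794 to 15736979) had means of 326 and 30 and was 10.9-fold lower (interval 8.69 to 13.7, log2 ratio -3.44). The product name that RefSeq gives for this locus is that of expansin A25, so names inside the cluster are best read by locus identifier. *EXPA21* (AT5G39260, 15726243 to 15727458) had means of 295 and 35.5 and was 8.31-fold lower (interval 6.73 to 10.3, log2 ratio -3.05).

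*EXPA24* (AT5G39310, 15739032 to 15740605), at the other end of the cluster, was listed at 0 in both genotypes. Added together, the 6 genes had means of 6686 in WT and 298.2 in *agl62*, so that *agl62* seeds held 4.46% of the WT level. Of the 5 cluster genes with reads, *EXPA21* had the highest share of its WT mean, 12.0%, and *EXPA23* the lowest, 1.95%.

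*EXPB4* (AT2G45110, chromosome 2, 18599498 to 18601339, plus strand) had the largest ratio of the superfamily. Its mean was 867 in WT and 5.95 in *agl62*, which was 146-fold lower (interval 92.8 to 243, log2 ratio -7.19). The *agl62* mean stands for between 19 and 23 counts over the 3 libraries. *EXPB4* is a beta expansin outside the cluster, and its closest coding sequence in the family was that of *EXPB6* at 88.8% identity, a gene listed at 0 in both genotypes.

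**Figure D1:**
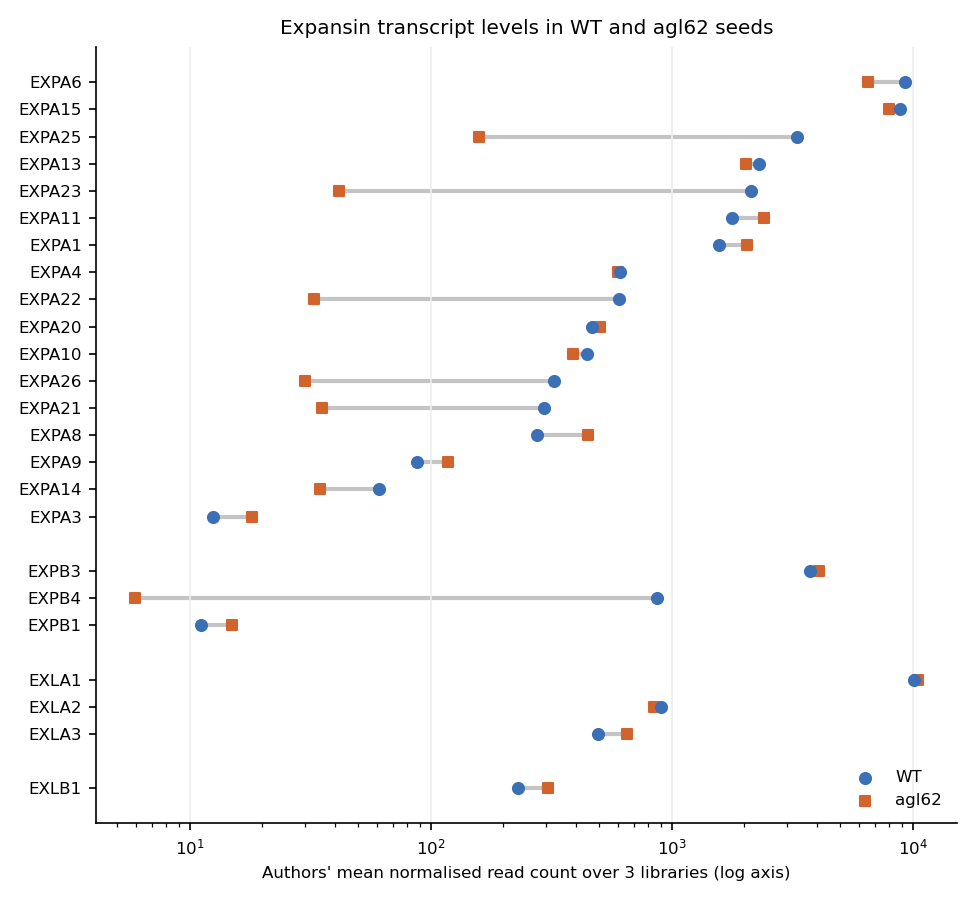
Authors' mean normalised read count (log axis) of the 24 expansins compared, grouped by subfamily and ordered by WT level, with WT as blue circles and *agl62* as orange squares joined by a grey line. *EXPB4* and the 5 genes of the chromosome 5 cluster have long lines to the left, the longest from 867 to 5.95, and the other 18 lie within 2-fold. There are no error bars because the table gives 1 mean per genotype.

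The shares over all genes given above stand for 726 genes at least 2-fold lower and 649 at least 2-fold higher. With 3-fold as the limit the same 6 expansins were counted, beside 2.63% of all genes. With 1.5-fold, *EXPA14* joined them to make 7, beside 5.92% of all genes. *EXPA8* was then the 1 expansin at least 1.5-fold higher, beside 7.23% of all genes. Of the 6 lower genes, 5 are tandem copies that share sequence. With the cluster counted as 1 locus the count was 2 of 20. The share over all genes beside it is 3.58%, in which other tandem copies were not merged.

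Ordered by log2 ratio from the lowest among the 20255 genes, *EXPB4* was at position 16, *EXPA23* at 41, *EXPA25* at 106, *EXPA22* at 124, *EXPA26* at 194 and *EXPA21* at 238. The median log2 ratio of the 24 expansins was -0.06, close to the 0.01 of all genes, and the 18 expansins other than the 6 had a median of 0.12.

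**Figure D2:**
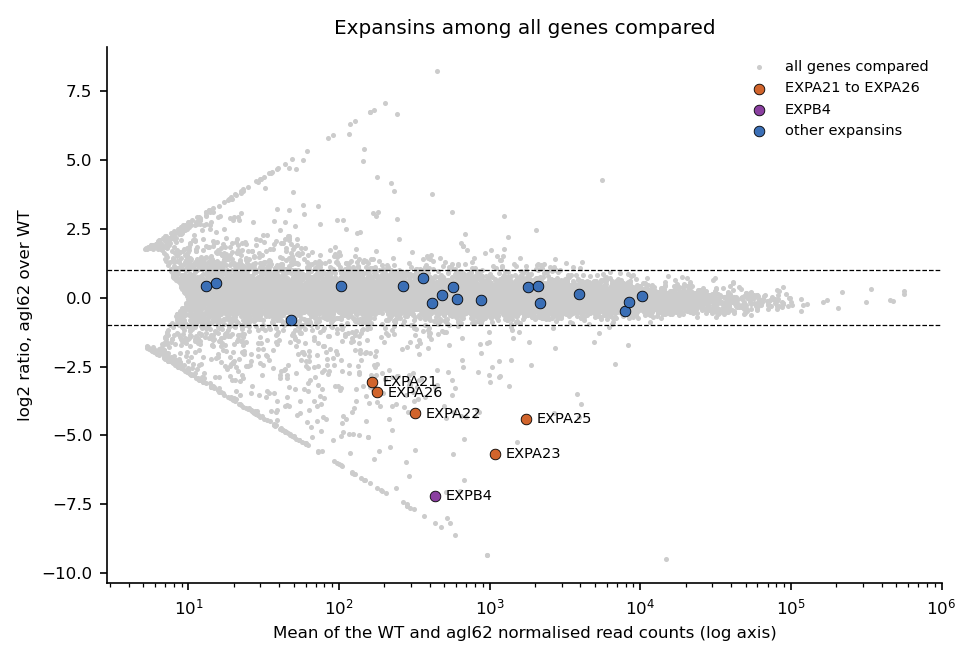
Log2 ratio of *agl62* over WT against the mean of both genotypes (log axis) for the 20255 genes compared, in grey, with expansins in colour and dashed lines at 2-fold. *EXPB4* and the 5 cluster genes lie between -7.19 and -3.05, and the other 18 expansins between -0.81 and 0.71.

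The members of the cluster are close copies, which matters because only uniquely mapping reads were kept. *EXPA22* and *EXPA26* had coding sequences 97.7% identical, and *EXPA23* and *EXPA25* were 97.5% identical. The 100-base stretches of each whole gene, introns included, were searched for exact copies elsewhere in the genome. In *EXPA22* and *EXPA26*, 15.9% and 16.0% of them have such a copy, and in *EXPA23* and *EXPA25* 24.2% and 24.7% do. A read of 100 bases from such a stretch has, taken alone, more than 1 place in the genome. The reads were paired, and how many of that kind were left out is not known. The levels of these 4 genes and their order are therefore uncertain. Each near-identical pair of genes was also summed, which does not bring back any reads left out. *EXPA22* plus *EXPA26* came to 931 in WT and 62.9 in *agl62* (14.8-fold lower), and *EXPA23* plus *EXPA25* came to 5460 and 200 (27.3-fold lower). No such stretch was found in *EXPA21* or *EXPB4*. Over the 15 pairs of the cluster, coding identity ranged from 76.1% to 97.7% with a median of 80.7%, against a median of 64.2% for the 114 pairs of a cluster gene with another alpha expansin.

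*EXPA21* carries another limit. It overlaps AT5G39250, an F-box family gene on the opposite strand, along 430 exon bases, or 40.3% of its exons. The library kit is not stated to mark strand, so reads there cannot be told apart. AT5G39250 had means of 608 and 624, and the values of *EXPA21* may include some of its reads. The same holds for *EXPA20*, whose exons are overlapped to 86.3% by the long non-coding RNA AT4G38215. Without these 2 genes, 5 of 22 expansins were at least 2-fold lower, beside 3.58% of all genes, among which overlapping genes were kept.

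Genes around the cluster did not show differences of this size. Within 50 kb on either side, 15 other genes were compared, and their log2 ratios ran from -1.02 to 0.13 with a median of -0.05. The flanking genes were AT5G39250, given above, and *UDG4* with means of 9760 and 9420. Of the 15, 1 was past 2-fold, the kinase gene *cdc2cAt* (AT5G39420) with means of 34 and 16.8, and it was chosen for mention after its values were seen. *AGL62* lies 8.56 Mb away on the same chromosome. Around *EXPB4*, 22 other genes within 50 kb were compared, of which 2 were at least 2-fold lower and 1 was at least 2-fold higher, with a median of -0.04.

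**Figure D3:**
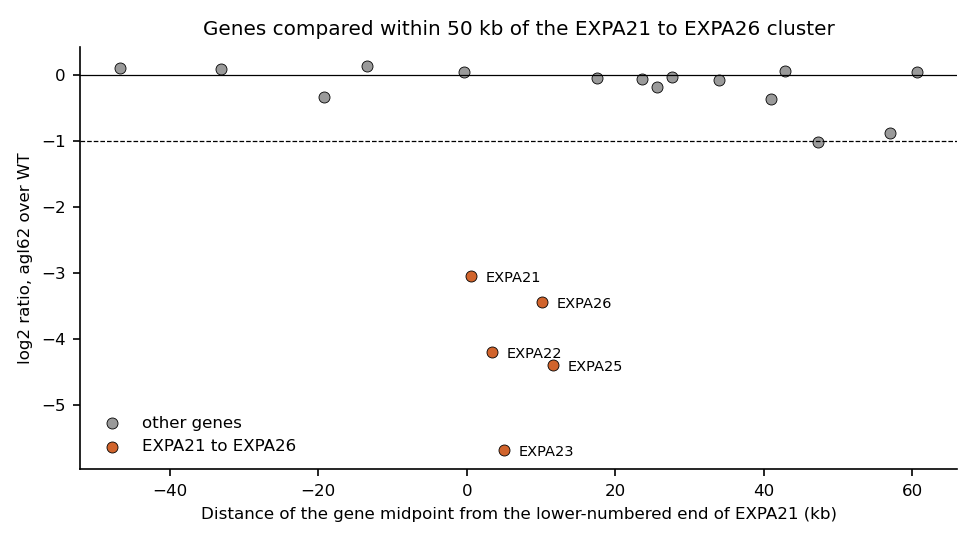
Log2 ratio of *agl62* over WT for the genes compared within 50 kb of the cluster, against the distance in kb of each gene's midpoint from the lower-numbered end of *EXPA21*. The 5 orange cluster genes lie between -5.68 and -3.05, and the 15 grey neighbours lie between -1.02 and 0.13. The dashed line marks 2-fold lower.

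The alpha expansins outside the cluster differed less, with log2 ratios from -0.81 to 0.71 among those compared. Of the 19 in the table, 12 were compared, none was past 2-fold, and their median log2 ratio was 0.04. *EXPA6* (AT2G28950, chromosome 2, 12431338 to 12433796, minus strand) had the highest WT mean of the alpha expansins, with 9260 in WT and 6550 in *agl62*. Its log2 ratio was -0.50 (interval -0.53 to -0.47). *EXPA15* (AT2G03090, chromosome 2, 916806 to 918671, minus strand) had means of 8870 and 7960, a log2 ratio of -0.16 (interval -0.19 to -0.12). It was above *EXPA6* in *agl62* by its mean, and in both genotypes per kb of transcript. These intervals leave out the spread between plants, and small ratios of this kind cannot be told from it.

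Among the other alpha expansins of middle rank, *EXPA13* had means of 2310 in WT and 2030 in *agl62*, and *EXPA4* had 609 and 597. *EXPA11* was somewhat higher in *agl62*, with means of 1780 and 2420. *EXPA1*, a gene known from guard cells, had means of 1570 and 2050. None of these differences reached 1.5-fold. *EXPA20* had means of 468 and 502, and *EXPA10*, a gene known from leaf growth, had 443 and 391.

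The largest ratios among these 12 belonged to genes of low or middle level. *EXPA8* had means of 276 in WT and 450 in *agl62*, a log2 ratio of 0.71 (interval 0.54 to 0.87). *EXPA14*, which is known from lateral root emergence, had means of 60.7 and 34.7, a log2 ratio of -0.81 (interval -1.23 to -0.38). The interval of *EXPA14* reaches past 2-fold, so counting error alone leaves its side of that limit uncertain. *EXPA9* had means of 87.8 and 118. *EXPA3* was near the limit of comparison, with means of 12.5 and 18.1 and an interval that spans 0 (-0.27 to 1.41).

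*EXPB4* differed from the other beta expansins. *EXPB3* (AT4G28250, chromosome 4, 13999625 to 14002124, minus strand) was the most abundant of them, with means of 3740 in WT and 4100 in *agl62*, a log2 ratio of 0.13 (interval 0.09 to 0.18). *EXPB1* had means of 11.1 and 15, and its interval of -0.42 to 1.37 spans 0. In WT the 867 of *EXPB4* stood second among the beta expansins to the 3740 of *EXPB3*. Per kb of transcript, *EXPB4* ranked 10 of the whole family in WT and 24 in *agl62*.

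The expansin-like genes had reads in both genotypes, at levels from the top to the middle of the family. *EXLA1* (AT3G45970, chromosome 3, 16896166 to 16897308, plus strand) had the highest mean of the superfamily, 10100 in WT and 10500 in *agl62*, and a log2 ratio of 0.06 (interval 0.03 to 0.08). *EXLA2* had means of 898 and 845. *EXLA3* had means of 495 and 652 and *EXLB1* had 229 and 306, which are log2 ratios of 0.40 and 0.42. None of the 4 expansin-like genes was past 1.5-fold.

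The 11 expansins that were not compared had few reads or none. Of these, 7 were listed at 0 in both genotypes, namely *EXPA7*, *EXPA12*, *EXPA17*, *EXPA18*, *EXPA24*, *EXPB2* and *EXPB6*. *EXPA7* and *EXPA18* are known from root hairs, and the 5 root hair markers examined beside them had means of 1.95 or less. *EXPA2*, known from seed germination, had 0.731 in WT and 0 in *agl62*, and *EXPA16* had 0.326 and 0, so that a single count can account for each of the WT values. *EXPA5* had means of 3.81 and 3.66, and *EXPB5* had 1.78 and 4.24. At this depth no difference could be shown for these 4 genes, and their absence from seeds cannot be claimed.

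The means of the 35 expansins summed to 48780 in WT and 39850 in *agl62*, which is 81.7% of WT. The net difference of 8929 normalised counts is made of 11290 lost over the 16 genes with a lower mean in *agl62* and 2364 gained over the 12 with a higher one. The 6 genes past 2-fold lost 7249, or 64.2% of the summed loss. *EXPA25* alone differed by 3162, *EXPA6* by 2710 and *EXPA23* by 2098. Without the 6 lower genes, the other 18 compared had 95.9% of their WT sum.

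The make-up of expansin RNA differed between the genotypes. The 6 lower genes gave 15.5% of the summed expansin signal in WT seeds and 0.763% in *agl62* seeds, or 20.5% and 1.05% per kb of transcript. The 3 leading genes per kb, *EXLA1*, *EXPA15* and *EXPA6*, held the same ranks in both genotypes. *EXPA25* and *EXPA23* went from ranks 4 and 5 in WT to ranks 15 and 17 in *agl62*. Among the subfamilies, the alpha expansins had 72.2% of their WT sum in *agl62* with the cluster and 89.8% without it. The beta expansins had 89.3% and the EXLA genes 104%.

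Expansins depend on the acidity of the wall, and the genes that set it were examined from a list of 26. Plasma membrane proton pumps (AHA) acidify the wall, PP2C.D phosphatases switch the pumps off, and SAUR proteins inhibit those phosphatases. Of 11 pump genes 9 were compared, and none was past 2-fold. *AHA1*, the most abundant, had means of 54900 in WT and 59400 in *agl62*. *AHA2* was the pump with the lowest log2 ratio, -0.63, with means of 14200 and 9170.

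Of 6 SAUR genes 3 were compared, and of 9 PP2C.D genes all were, and none was past 2-fold. *SAUR19*, *SAUR21* and *SAUR24* were near the limit of comparison, with WT means of 7.46, 7 and 8.27 and *agl62* means of 10.5, 11.6 and 12.3. The 9 phosphatase loci ran from a log2 ratio of -0.69 to 0.29 with a median of -0.03, and RefSeq gives no symbol for them, so that their names rest on the list.

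Seeds of the 2 genotypes also differed in the level of tissue markers, and since tissues were not separated, fewer cells of a tissue and less RNA per cell cannot be told apart. Of 10 endosperm genes compared, 7 were at least 2-fold lower and 1 was at least 2-fold higher. Their median log2 ratio was -1.60, beside 0.01 for all genes, and the summed level of the 12 genes listed was 30.3% of WT in *agl62*. The count, the median and the sum all include *AGL62*, the mutated gene, and the list was chosen with earlier results of these data known. The 7 were *AGL62* itself, the MADS-box genes *PHE1*, *AGL36* and AT5G26630, the Polycomb gene *MEA*, the imprinted gene *FWA* and *MINI3*, a WRKY gene of endosperm growth, which had means of 149 and 7.46. *AGL28*, with means of 10.5 and 46, was the 1 higher. *FIS2*, another Polycomb gene, was also higher but within 2-fold, with means of 83.9 and 143, and *AGL90*, which was not compared, had 0 and 9.4.

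Markers of the seed coat endothelium, the innermost integument layer, were close to their WT level. All 10 were within 2-fold, from -0.14 to 0.07 in log2 ratio, and their sum in *agl62* was 97.9% of WT. *BAN*, a gene of tannin synthesis, had means of 96900 and 97300. Photosynthesis genes, listed as markers of the green silique, were higher in *agl62*, all 12 within 2-fold, from 0.24 to 0.66. Their sum was 143% of WT, and the tissue that their RNA came from was not tested. The 9 pollen markers compared had 1 gene lower (*PPME1*, 14.7 and 5.19) and 1 higher (*ACT12*, 3.65 and 10.6), and the sum of the list was 3302 in WT and 3306 in *agl62*. Whether RNA of the endosperm or of silique tissue contributed to the expansin values was not tested.

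**Figure D4:**
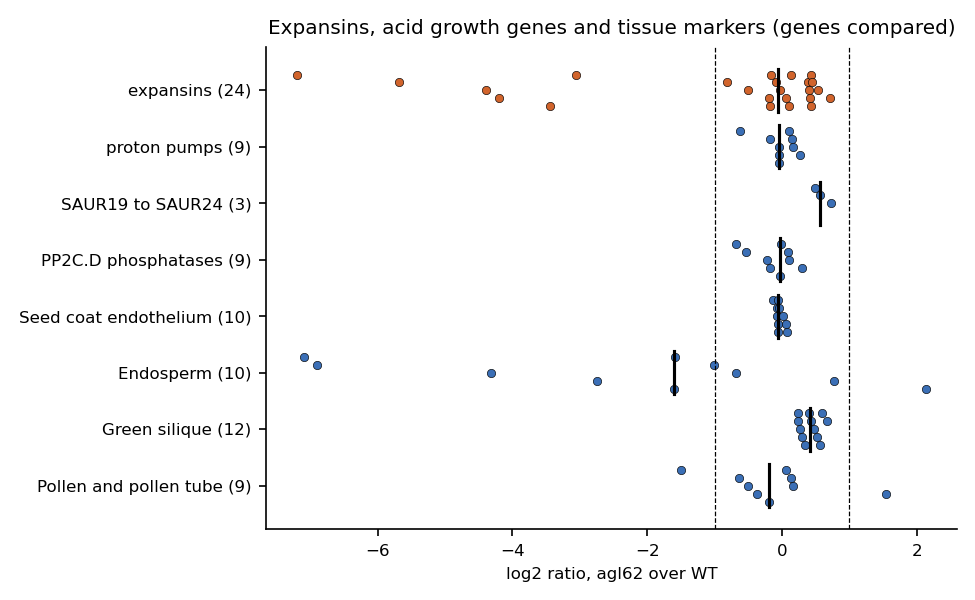
Log2 ratio of *agl62* over WT for the 24 expansins compared (orange) and for genes of the acid growth and tissue marker lists (blue), with the number of genes compared in parentheses, the median as a black bar and dashed lines at 2-fold. The 6 lower expansins lie at -3.05 and below, where 3 endosperm genes, the mutated *AGL62* among them, also lie. Proton pumps (-0.63 to 0.26) and endothelium genes (-0.14 to 0.07) lie within 2-fold. The vertical offset within a row has no meaning.

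The promoters of the 6 lower genes held none of 3 short elements that were searched, in a window from 250 bases before the start to 50 after it and on both strands. These were the auxin response element TGTCTC, the brassinosteroid element CGTGTG and the CArG box, a binding site of MADS-box proteins. Of 35 expansin promoters, 5 (14.3%) held TGTCTC, beside 14.2% of all protein-coding promoters. CGTGTG was in 4 (11.4%), beside 6.52%, and the CArG box in 0, beside 3.05%. *EXPA6*, which had a log2 ratio of -0.50, held both TGTCTC and CGTGTG, and no match overlapped another. A missing match says only that these letters were not in the window.

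The precision of all these values rests on the libraries. From the steps between the lowest means, the relative depths were 0.455 to 1.37 in WT and 1.06 to 1.3 in *agl62*. The table does not show which WT replicate was the shallow one, and no value could be recomputed without it.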

How the data were processed

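Per the labels and the methods, seed RNA libraries were made with the TruSeq RNA kit and sequenced as 100 bp paired end reads. The authors used TopHat for alignment to TAIR10, with uniquely mapping reads retained, and then ran DESeq. The counting tool, annotation, versions and strand setting are not given in the sources used here. The signal columns deposited by the authors are the average of size-factor-scaled counts over the libraries of a genotype, rounded to 3 significant digits. The deposited table also holds the authors' ratio, its log2 and p-values, none of which was used. Ratios of the means, sums and exact binomial (Clopper-Pearson) counting intervals were computed here with Python 3.11.15, numpy 2.4.6, pandas 2.3.3, scipy 1.17.1 and Biopython 1.88. The methods were tested on simulated data that held counting error only, so that test says nothing of the spread between replicates. The planned edgeR fit was not possible from the deposited table, which holds 1 mean per genotype. Counts per library were not derived from the reads. Coordinates and sequences are from RefSeq TAIR10.1, which matched 31912 of 32678 identifiers by locus. All 36 expansins are accounted for, those past 2-fold and the 5 with the highest means in full. Members and lists were chosen with earlier results of these data known. Alternatives were pseudocounts, other scalings, minimum means and folds.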

Additional observations from a re-analysis of the deposited data

How the results depend on the processing

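No paired analysis was possible because only 1 mean per genotype was given. For the same reason the fits with each replicate left out and with DESeq2 were not run, so no value is known to hold in every replicate. With pseudocounts of 1 and 10, equal totals, the median of all genes set to 0, no minimum mean or a minimum of 100, the number of expansins at least 2-fold lower stayed at 6 and the number higher at 0, and the median log2 ratio of the family lay between -0.09 and -0.01. Counted at 1.5-fold, 1 expansin was higher. With the tandem cluster as 1 locus, an alternative chosen after seeing the data, the number lower was 2 of 20 and the median was 0.08. By the counting bound nearest to no change, also chosen after seeing the data, the number lower was 6. The log2 ratio of the summed level was -0.29, and it was -0.36 per kb of transcript, -0.24 with equal totals and -0.40 without *EXLA1*. Of the 10 named genes, none changed direction under 40 alternative values, of which 9 moved past the counting interval. A pseudocount of 10 moved *EXPB4* most, from -7.19 to -5.78, since its *agl62* mean was 5.95. Depth limits *EXPA2*, *EXPA5*, *EXPA16* and *EXPB5*, for which no difference could be shown.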
